A study of Mus musculus with 12 samples.

Results

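Glucocorticoid target genes were followed in 12 RNA libraries from the soleus, a slow postural muscle of the hind limb, of 24-month-old male C57BL/6N mice. The 10 genes, Fkbp5, Tsc22d3, Ddit4, Sesn1, Klf9, Klf15, Mt1, Mt2, Cebpd and Zbtb16, are a hand-made list, found by mapping the Ensembl identifiers of the deposited table to mouse symbols, and all 10 were among its 30323 genes. Of these, 9 reached the mean of at least 1 TPM (a share of all transcripts in the library, corrected for their length) that put 10757 genes into the test, and Cebpd, at a mean of 0.741 TPM, did not. The groups, of 3 libraries each, were high functioning (HF) mice 5 days after laparotomy, HF controls, low functioning (LF) mice 5 days after laparotomy and LF controls. Function was set by performance on the accelerating rotarod, a test of balance and stamina, and laparotomy is surgical opening of the abdomen. All groups shared the aging-colony source, single housing, and 8 weeks of voluntary running in the home cage. The sources used here do not say whether controls had anaesthesia or a sham operation, at what time of day muscle was taken, or whether each library is a separate mouse. P-values therefore measure only the spread between these libraries.

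Glucocorticoids, the steroid hormones of the adrenal cortex, enter the cell and bind a receptor held ready by heat-shock chaperones. The loaded receptor moves to the nucleus and switches on genes such as these. In skeletal muscle the hormone is known for slowing protein synthesis and speeding protein breakdown, and its release follows a daily rhythm and rises with stress. Several of these genes also answer to other signals: Mt1 and Mt2 to zinc and other metals, Ddit4 to low oxygen and energy shortage, and Sesn1 to DNA damage.

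The start-site sequences of Ddit4, Mt1, Mt2 and Klf9 follow, shown because Klf9, Ddit4 and Mt2 differed between HF and LF and Mt1 holds the 1 match to a glucocorticoid response element, in its looser form. Zbtb16, which differed too, has no window in the table, and the windows of Fkbp5, Sesn1 and Klf15, which also hold searched motifs, are not shown. They come from RefSeq (GRCm38.p6) and run from 250 bases before the annotated start to 30 bases from it on, written 5′ to 3′ along the gene. The Ddit4 window is chr10:59951741-59952020 on the minus strand, that of Mt1 chr8:94178839-94179118, that of Mt2 chr8:94172368-94172647 and that of Klf9 chr19:23140976-23141255, the last 3 on the plus strand. Capitals mark any match, on either strand, to the motifs spelled out after them.
Ddit4: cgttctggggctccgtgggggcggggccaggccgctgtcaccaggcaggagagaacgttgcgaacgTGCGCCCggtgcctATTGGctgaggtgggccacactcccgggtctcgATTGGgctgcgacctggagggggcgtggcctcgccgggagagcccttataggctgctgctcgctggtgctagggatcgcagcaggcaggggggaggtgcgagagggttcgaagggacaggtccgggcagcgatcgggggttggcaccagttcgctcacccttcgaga
Mt1: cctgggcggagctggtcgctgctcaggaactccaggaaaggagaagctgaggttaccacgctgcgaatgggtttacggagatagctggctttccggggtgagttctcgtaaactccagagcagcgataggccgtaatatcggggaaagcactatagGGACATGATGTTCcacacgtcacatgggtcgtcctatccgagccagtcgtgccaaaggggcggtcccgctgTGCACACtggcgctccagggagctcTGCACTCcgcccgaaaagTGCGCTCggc
Mt2: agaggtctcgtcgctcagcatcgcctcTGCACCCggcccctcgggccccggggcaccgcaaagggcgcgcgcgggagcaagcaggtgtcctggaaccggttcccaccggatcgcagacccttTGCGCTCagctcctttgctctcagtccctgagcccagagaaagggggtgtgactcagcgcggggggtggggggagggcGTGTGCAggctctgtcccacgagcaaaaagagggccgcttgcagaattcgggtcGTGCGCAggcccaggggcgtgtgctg
Klf9: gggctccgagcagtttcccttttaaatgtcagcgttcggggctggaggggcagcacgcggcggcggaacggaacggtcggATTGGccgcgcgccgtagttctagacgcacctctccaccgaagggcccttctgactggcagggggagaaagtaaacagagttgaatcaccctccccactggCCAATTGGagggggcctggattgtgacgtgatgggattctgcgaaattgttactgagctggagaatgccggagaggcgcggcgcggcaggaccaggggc

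The search covered windows of 300 bases, 250 before the start and 50 from it on, and positions are counted from the start site as 0. Windows were found for 8 of the 10 members, 11 windows in all, and none for Cebpd and Zbtb16. The full glucocorticoid response element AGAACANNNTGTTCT was in 0 of the 11 windows and in 0.00913% of all 32851 windows. Its looser form GNACANNNTGTNC was in 1 member window, at -94 to -82 of Mt1, and in 0.475% of all windows. The metal response core TGCACNC, which the zinc-sensing factor Mtf1 binds, was in 2 member windows, those of Mt1 and Mt2, and in 12.6% of all windows, and its variant TGCGCNC was in 4 member windows and 15.4% of all. The E-box CACGTG was in 2 member windows, those of Fkbp5 and Klf15, and 7.15% of all, and the CCAAT box in 6 member windows and 37.4% of all. The Klf9 window holds 3 CCAAT boxes, of which the one at -69 to -65 on the plus strand overlaps the one at -66 to -62 on the minus strand. These motifs were picked after a look at the hits, a match is a description of letters only, and known glucocorticoid response elements of several of these genes lie far from the start site, outside such windows. For Mt2 the RefSeq start lies upstream of the GENCODE start.

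Across libraries the mean levels were, in descending order, Mt1 at 37.6 TPM, Tsc22d3 at 36.4 TPM, Klf9 at 28.6 TPM, Sesn1 at 13.5 TPM, Fkbp5 at 12.8 TPM, Mt2 at 11.6 TPM, Zbtb16 at 9.16 TPM, Ddit4 at 6.2 TPM, Klf15 at 3.07 TPM and Cebpd at 0.741 TPM. The ranges over libraries of neighbours in this order overlapped, except those of Klf15 (1.42 to 4.05 TPM) and Cebpd (0.477 to 1.08 TPM). The genes also differed in how much libraries of a group scattered. On the log2(TPM + 1) scale the within-group SD was 0.60 for Mt2, larger than that of 98.4% of tested genes, and 0.12 for Tsc22d3, larger than that of 16.9%, against a median of 0.16. Group membership took up 87.9% of the variance of Klf9, 72.1% of that of Ddit4 and 70.5% of that of Zbtb16, but 19.3% of that of Klf15, against a median of 49.3% over tested genes. With so few libraries a group, part of the variance falls between groups even where they do not differ. No such baseline was computed, so a low share is no sign of a group difference.

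**Figure D1:**
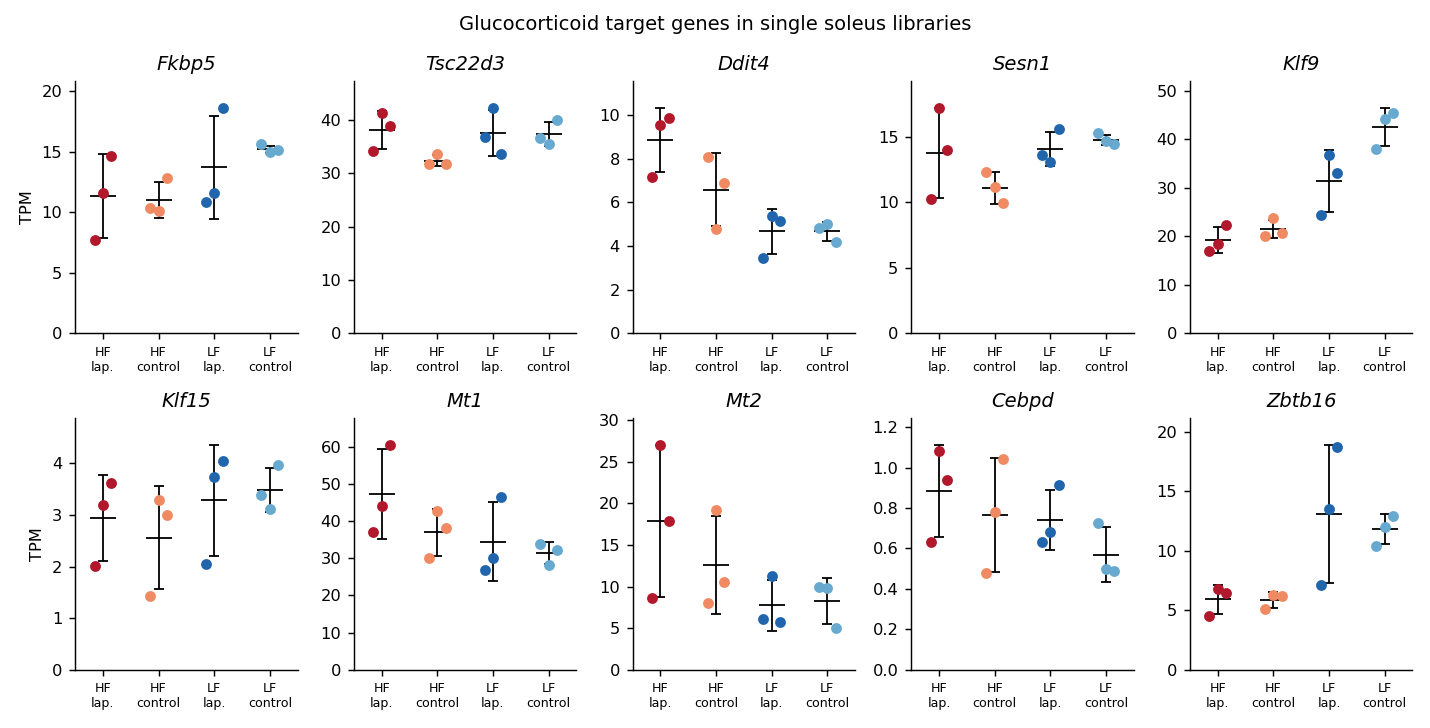
Level in TPM (vertical axes, each from 0) of the 10 genes in HF laparotomy (dark red), HF control (orange), LF laparotomy (dark blue) and LF control (light blue) libraries, 1 point a library, with the group mean (horizontal line) and SD (bars), n = 3. All HF points of Klf9 (17.0 to 23.7 TPM) lie below all LF points (24.4 to 45.4 TPM), and the same holds for Zbtb16, while the Tsc22d3 groups stay within 31.8 to 42.3 TPM.

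HF and LF muscle were set against each other in libraries averaged over laparotomy and control. Klf9 and Zbtb16, both transcription factors with zinc fingers that glucocorticoids induce, were lower in HF, and Ddit4, an inhibitor of the growth kinase complex mTORC1, and Mt2, a metal-binding metallothionein, were higher. These 4 of 9 tested members passed the threshold, an adjusted p under 0.05 from limma with Benjamini-Hochberg adjustment over all tested genes, against 41.3% of all 10757 tested genes. By direction, 2 members were higher, against 6.03% of all tested genes, and 2 lower, against 35.3%. Log2 differences are given as HF minus LF after subtracting the median of the tested genes, which lay at -0.15 as deposited, ± SE, on the log2(TPM + 1) scale, while each adjusted p is of the difference as deposited. That shift bears on direction: as deposited, 649 tested genes were higher and 3798 lower in HF, and with median-of-ratios size factors 2146 were higher and 2211 lower. In whole muscle, fewer cells of a type and less RNA per cell cannot be told apart.

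Klf9, a Krüppel-like factor that mostly represses its targets and is tied to the body clock, measured 17.0, 18.4 and 22.3 TPM in HF laparotomy libraries and 20.0, 23.7 and 20.7 TPM in HF control libraries. It measured 24.4, 36.8 and 33.0 TPM in LF laparotomy libraries and 38.0, 44.1 and 45.4 TPM in LF control libraries. All 6 HF libraries lay below all 6 LF libraries, as did those of 9.31% of tested genes. The Klf9 difference was -0.66 ± 0.11 with an adjusted p of 3.74e-04 (limma). It was also called after laparotomy, at -0.48 ± 0.15 (adjusted p = 0.00989, limma), and in controls, at -0.84 ± 0.15 (adjusted p = 0.0122, limma), where the call was lost without LF control 2 (-0.80, adjusted p = 0.0653).

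Zbtb16, which encodes the factor PLZF, measured 4.52, 6.77 and 6.45 TPM in HF laparotomy libraries and 5.09, 6.27 and 6.23 TPM in HF control libraries. Its LF laparotomy libraries held 7.13, 13.5 and 18.7 TPM and its LF control libraries 10.4, 12.0 and 12.9 TPM. Again no HF library reached the lowest LF library, and the LF laparotomy libraries were the most scattered. The difference was -0.78 ± 0.18 (adjusted p = 0.00184, limma). Within treatments it was -0.76 ± 0.25 after laparotomy (adjusted p = 0.0174, limma) and -0.79 ± 0.25 in controls (adjusted p = 0.0416, limma). The call after laparotomy was lost without HF laparotomy 1, LF laparotomy 2 or LF laparotomy 3 (-0.53 to -0.70, adjusted p of 0.0626 to 0.0719, limma). The call in controls was lost without HF control 1, HF control 3, LF control 2 or LF control 3 (-0.70 to -0.87, adjusted p of 0.111 to 0.128, limma). It was also lost, with adjusted p of 0.0504 to 0.0558, without HF laparotomy 2 or 3, HF control 2, LF laparotomy 2 or LF control 1. With genes of any level tested, the adjusted p was 0.069 after laparotomy and 0.127 in controls, and with only the compared groups fitted it was 0.0511 after laparotomy (limma).

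Ddit4, also called REDD1, went the other way. It measured 7.18, 9.54 and 9.88 TPM in HF laparotomy libraries and 8.10, 4.79 and 6.89 TPM in HF control libraries. In LF muscle it measured 3.46, 5.40 and 5.14 TPM after laparotomy and 4.83, 5.02 and 4.18 TPM in controls. A single HF library, HF control 2, lay within the LF range. The Ddit4 difference was 0.75 ± 0.13 averaged over treatments (adjusted p = 0.00341, limma) and 1.0 ± 0.18 after laparotomy (adjusted p = 0.0104, limma). There all 3 HF libraries lay above all 3 LF libraries, as did those of 4.29% of tested genes as deposited, where the median lay at -0.19. In controls it was 0.51 ± 0.18 and was not called (adjusted p = 0.153), but was without HF control 2 (0.74, adjusted p = 0.0493, limma).

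Metallothioneins bind zinc and copper and protect against oxidants, and Mt1 and Mt2 lie 5513 bases apart on chromosome 8. Mt2 measured 8.68, 27.0 and 17.9 TPM in HF laparotomy libraries and 8.00, 19.2 and 10.6 TPM in HF control libraries, against 6.10, 11.3 and 5.77 TPM in LF laparotomy libraries and 9.99, 9.81 and 5.08 TPM in LF control libraries. The spread was wide, with HF laparotomy 2 at 5.32 times the lowest library, and HF and LF overlapped. The Mt2 difference was 0.92 ± 0.28 (adjusted p = 0.0382, limma). That call was lost on leaving out any 1 of HF laparotomy 2, HF laparotomy 3, HF control 2, HF control 3, LF laparotomy 1, LF laparotomy 3 and LF control 3, with differences of 0.75 to 0.94 and adjusted p of 0.0597 to 0.0949 (limma), and with genes of any level tested (adjusted p = 0.137). The exons of Mt2 overlap Gm45774 on the opposite strand and no source used here says whether reads were assigned by strand, so its level is uncertain.

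Mt1 measured 37.0, 44.2 and 60.6 TPM in HF laparotomy libraries and 30.1, 42.8 and 38.2 TPM in HF control libraries. It measured 26.8, 30.2 and 46.6 TPM in LF laparotomy libraries and 33.9, 28.2 and 32.2 TPM in LF control libraries. HF lay higher on average, with overlap, and the Mt1 difference of 0.48 ± 0.15 was not called on values as deposited (adjusted p = 0.0852, limma) but was with size factors (adjusted p = 0.00505, limma), and without HF laparotomy 1 (0.55, adjusted p = 0.0471) or LF laparotomy 3 (0.57, adjusted p = 0.0168). The ratio of Mt1 to Mt2 ran between 1.63 in HF laparotomy 2 and 8.07 in LF laparotomy 3, so the neighbours did not scale together from library to library. Mt3, a metallothionein known mainly from brain, was not called at 0.56 ± 0.21 (adjusted p = 0.134, limma).

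**Figure D2:**
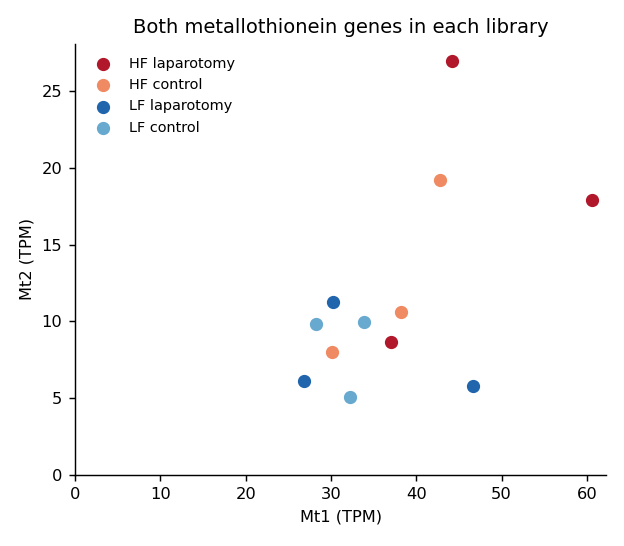
Mt2 level against Mt1 level, both in TPM from 0, 1 point a library, coloured by group. HF laparotomy libraries 2 and 3 hold the highest Mt2 (27.0 TPM) and the highest Mt1 (60.6 TPM), and LF laparotomy 3 combines 46.6 TPM of Mt1 with 5.77 TPM of Mt2.

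The remaining 4 tested members were not called between HF and LF. Fkbp5 encodes a co-chaperone that lowers the receptor's affinity for hormone and is among the most used markers of glucocorticoid action. It measured 7.73, 11.6 and 14.6 TPM in HF laparotomy libraries, 10.3, 10.1 and 12.8 TPM in HF control libraries, 10.8, 11.6 and 18.6 TPM in LF laparotomy libraries and 15.6, 15 and 15.1 TPM in LF control libraries. The LF controls were tight and lay above all HF controls, and both laparotomy groups were wide. The Fkbp5 difference was -0.20 ± 0.15 (95% interval -0.52 to 0.12, adjusted p = 0.0782, limma), and it was called without HF laparotomy 3 (-0.28, adjusted p = 0.0273) and without LF laparotomy 1 (-0.24, adjusted p = 0.0421).

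Tsc22d3, which encodes GILZ, a mediator of the anti-inflammatory action of glucocorticoids, measured 34.3, 41.3 and 39.0 TPM in HF laparotomy libraries, 31.8, 33.6 and 31.8 TPM in HF control libraries, 36.8, 42.3 and 33.7 TPM in LF laparotomy libraries and 36.7, 35.6 and 40 TPM in LF control libraries. It was the steadiest member, with its highest library at 1.33 times its lowest. Relative to the median of all genes it differed by 0.059 ± 0.075 (95% interval -0.10 to 0.22), and as deposited by -0.088 (adjusted p = 0.364, limma), so its direction turns with the scaling.

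Sesn1, a stress-induced sestrin that restrains mTORC1, measured 10.3, 17.2 and 14 TPM in HF laparotomy libraries, 12.3, 11.2 and 9.92 TPM in HF control libraries, 13.6, 13.1 and 15.6 TPM in LF laparotomy libraries and 15.3, 14.7 and 14.5 TPM in LF control libraries. Its HF controls lay below its LF controls, and the averaged difference was -0.073 ± 0.11 (95% interval -0.30 to 0.16, adjusted p = 0.111, limma). It was called without HF laparotomy 2 (-0.15, adjusted p = 0.0319).

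Klf15, a factor that turns on amino acid breakdown in muscle, measured 2.01, 3.20 and 3.61 TPM in HF laparotomy libraries, 1.42, 3.28 and 2.99 TPM in HF control libraries, 2.05, 3.74 and 4.05 TPM in LF laparotomy libraries and 3.39, 3.12 and 3.96 TPM in LF control libraries. HF control 1, HF laparotomy 1 and LF laparotomy 1 were its lowest libraries, and the difference was -0.094 ± 0.17 (95% interval -0.46 to 0.27, adjusted p = 0.266, limma).

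Within treatments the same comparison gave 3 of 9 members after laparotomy, against 26.0% of all tested genes, and 2 of 9 in controls, against 10.5%. After laparotomy Mt2 differed by 1.23 ± 0.39 (adjusted p = 0.0658, limma) and Mt1 by 0.65 ± 0.21 (adjusted p = 0.123, limma), and both were called with size factors (adjusted p = 0.0446 and 0.0171, limma). Mt2 was also called there without HF laparotomy 1 (1.62, adjusted p = 0.0343) and Mt1 without LF laparotomy 3 (0.82, adjusted p = 0.043). Ddit4 was not called after laparotomy without the 3 libraries richest in the fast myosin Myh4 (0.84, adjusted p = 0.0671, limma). In controls, Fkbp5, Tsc22d3, Sesn1, Klf9 and Zbtb16 had all HF libraries below all LF libraries, 5 of 9, against 31.3% of all tested genes. Leaving out LF control 2 left 0 of 9 members and 2 of all genes called in controls. Leaving out HF control 1, HF control 3 or LF control 3 left 1 of 9 members, with 47, 66 and 48 of all genes called. The same 1 of 9 was left without HF laparotomy 2, HF laparotomy 3, LF laparotomy 2 or LF control 1. With only the compared groups fitted, Fkbp5 and Sesn1 were called in controls too (adjusted p = 0.0348 and 0.0402, limma).

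Several library properties moved with HF and LF. Longer transcripts were lower in HF: over the 10757 tested genes, which share the same 12 libraries, Spearman's rho between transcript length and the difference was -0.367. The length trend was not confined to HF against LF. For laparotomy minus control, rho was -0.147 in HF, -0.222 in LF and -0.236 averaged. Among the tested members the longest transcripts are those of Zbtb16 at 5114 bases and Klf9 at 4486 bases, and the shortest are those of Mt2 at 511 bases, Mt1 at 1085 bases and Ddit4 at 1755 bases. With a trend on length and GC content removed per library, Klf9 differed by -0.57 (adjusted p = 5.70e-04), Zbtb16 by -0.71 (adjusted p = 0.00455) and Ddit4 by 0.60 (adjusted p = 0.00663), all still called by limma. Mt2 differed by 0.67 and was not called (adjusted p = 0.0909). Summed markers of nerve sheath (4 of 4 in the table) were 49.3 to 164 TPM after laparotomy and 54.8 to 66.4 TPM in controls of HF, against 32.7 to 42.4 TPM after laparotomy and 33.6 to 38.7 TPM in controls of LF. The 5 endothelial markers summed to 166 to 229 TPM in HF and 139 to 184 TPM in LF, with overlap. The gap was widest for Egfl7, which averaged 81.2 TPM after laparotomy and 82.8 TPM in controls of HF, against 55.3 and 50.1 TPM in LF. Kdr alone went the other way after laparotomy, at 14.4 TPM in HF and 15.5 TPM in LF. The part of these cell markers in the members' differences was not tested.

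**Figure D3:**
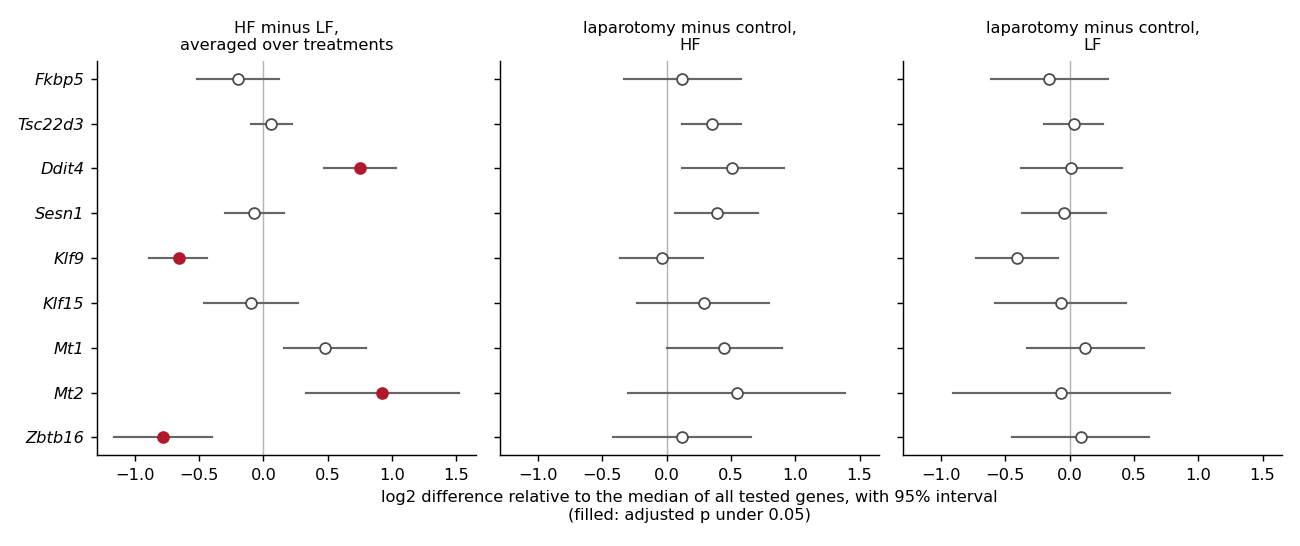
Log2 difference after subtracting the median of the tested genes (horizontal axis) of the 9 tested members for HF minus LF averaged over treatments, laparotomy minus control in HF and laparotomy minus control in LF, with 95% intervals. Filled points passed an adjusted p of 0.05: Ddit4 (0.75), Klf9 (-0.66), Mt2 (0.92) and Zbtb16 (-0.78) on the left, and no member in either laparotomy panel.

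Laparotomy against control was the comparison the study set out to make, 5 days after surgery. None of the 9 members was called in HF, in LF, averaged, or for the difference between the effects in HF and LF. The background was 0% in each, since limma called 0 of 10757 genes in every one of these 4 contrasts. At an unadjusted p under 0.05 there were 665 genes in HF, 291 in LF, 747 averaged and 331 for the difference, of which 0, 1, 1 and 0 were members. If no gene differed, a share of 0.05 of the tests would be expected to pass this cut. The tests were of values as deposited, whose median lay at -0.12 in HF, -0.029 in LF, -0.074 averaged and -0.091 for the difference.

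In HF, Tsc22d3 was the member whose libraries did not overlap, all 3 laparotomy libraries lying above all 3 controls, as for 0.604% of tested genes. That share is of values as deposited, on which the median gene was lower after laparotomy (-0.12), and no share was computed with size factors. The Tsc22d3 difference was 0.35 ± 0.11 (adjusted p = 0.655, limma). Ddit4 differed by 0.51 ± 0.18, Mt1 by 0.45 ± 0.21 and Sesn1 by 0.39 ± 0.15, each with an adjusted p of 0.655 (limma). Relative to the median of all genes, 8 of 9 members lay above 0 with a list median of 0.35, Klf9 being the exception at -0.037 ± 0.15, whereas all tested genes have a median of 0 on this scale by construction. As deposited the list median was 0.23, against -0.12 for all tested genes. The 22 further glucocorticoid-induced genes tested, described below, did not share this lean. Relative to the median of all genes, 13 of them lay above 0 and 9 below, with a median of 0.029. The unadjusted 95% intervals, relative to the median, ran from -0.30 to 1.39 for Mt2 and from -0.33 to 0.58 for Fkbp5. They lay above 0 for Tsc22d3 (0.12 to 0.58), Ddit4 (0.12 to 0.91) and Sesn1 (0.065 to 0.71), and reached or spanned 0 for the other members. Each adjusted p, in contrast, is of the difference as deposited. The upper ends show what size of rise these 3 against 3 libraries leave possible.

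In LF the members lay on both sides of the median, 4 above and 5 below, with a list median of -0.043. Klf9 was the member whose libraries did not overlap, lower after laparotomy in all 3, as for 3.92% of tested genes. Its difference was -0.41 ± 0.15 (adjusted p = 1, limma). The other 8 lay between -0.16 for Fkbp5 and 0.12 for Mt1. For the laparotomy effect in HF minus that in LF, all 9 members were above the median of all genes, between 0.032 ± 0.35 for Zbtb16 and 0.61 ± 0.55 for Mt2, and none was called (adjusted p = 1 for each, limma). Of the 22 further glucocorticoid-induced genes, 13 were above that median and 9 below, with a list median of 0.028.

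Averaged over HF and LF, 7 of 9 members lay above the median of all genes and none was called. Of the 22 further glucocorticoid-induced genes, 13 lay above it and 9 below. Klf9 differed by -0.22 ± 0.11 (adjusted p = 0.683, limma), and Tsc22d3 by 0.19 ± 0.075 (adjusted p = 0.683, limma). Neither separated the 6 laparotomy libraries from the 6 controls.

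The place of a library within its group was counted over the members. HF laparotomy 1 was the lowest of its group in all 10 members, while it was the lowest of 3 in 58.3% of tested genes. With size factors it remained lowest in 10 of 10, against 33.7% of tested genes. It was also the lowest in 18 of 22 further glucocorticoid-induced genes. LF laparotomy 1 was the lowest of its group in 7 of 10 members, near the share of tested genes, 67.4%, and with size factors in 5 of 10 against 34.9%. HF control 1 was the lowest in 7 of 10 against 30.4%, and with size factors in 6 of 10 against 35%, but among the 22 further genes it was the lowest in 8 and the highest in 8. HF control 3 was the highest of its group in 2 of 10 members against 13% of tested genes, and with size factors in 7 of 10 against 33.5%. The pattern of HF laparotomy 1 was noticed in these data and carries no test, and members of 1 library are not independent of each other.

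HF laparotomy 1 also had the lowest summed adipocyte markers of the series, 4.22 TPM where the other HF laparotomy libraries had 48.0 and 58.2 TPM, and the lowest macrophage markers, 28.9 TPM against 34.6 and 95.2 TPM. That macrophage sum lay close to those of HF control 3 (30.5 TPM), LF control 3 (30.6 TPM) and LF laparotomy 3 (31.9 TPM). The part of these markers in the low member levels was not tested. Without HF laparotomy 1 the laparotomy differences in HF were 0.93 for Mt2, 0.61 for Ddit4, 0.58 for Mt1, 0.54 for Sesn1, 0.44 for Klf15, 0.39 for Tsc22d3, 0.32 for Fkbp5, 0.24 for Zbtb16 and 0.011 for Klf9, and again none was called (adjusted p of 0.908 to 0.938, limma). Since this library was the lowest of its group in all 10 members, leaving it out had to raise each difference as deposited. The larger values are therefore no separate result.

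**Figure D4:**
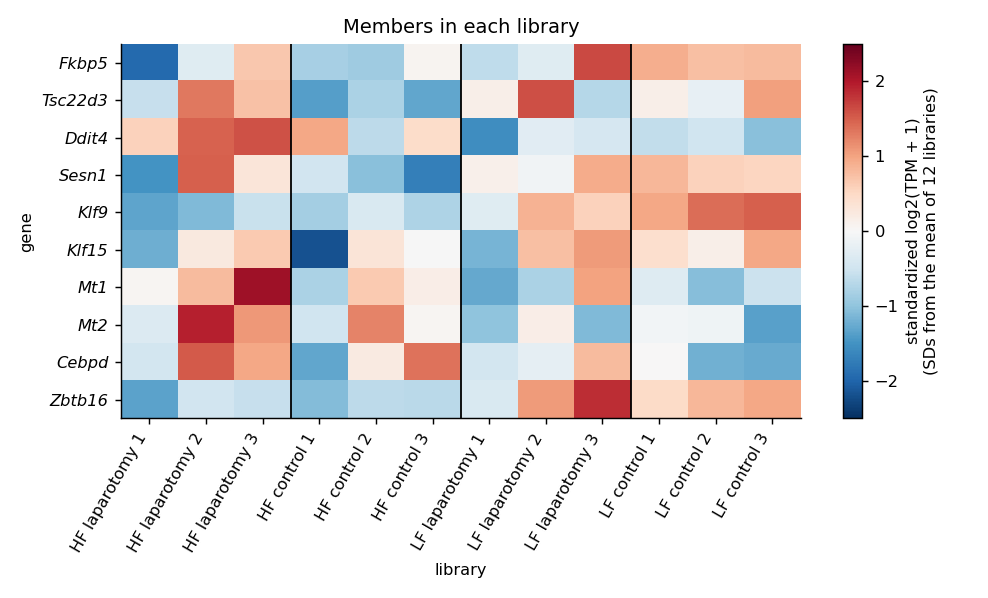
Standardized log2(TPM + 1) of the 10 genes (rows) in each library (columns), in SDs from the gene's mean over 12 libraries, red above and blue below the mean. Klf9 and Zbtb16 are blue in all 6 HF libraries, and within HF laparotomy the first column is the lowest of 3 in all 10 rows.

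Cebpd, a factor of the acute phase that glucocorticoids and cytokines induce, measured 0.634, 1.08 and 0.941 TPM in HF laparotomy libraries, 0.477, 0.778 and 1.04 TPM in HF control libraries, 0.632, 0.679 and 0.912 TPM in LF laparotomy libraries and 0.726, 0.499 and 0.486 TPM in LF control libraries. All groups overlapped. Exact two-sided permutation tests gave p of 0.16 to 0.6 over 6 comparisons, adjusted to 0.48 to 0.6. The smallest p possible was 0.1 for 3 against 3 libraries and 0.005 for averaged comparisons. Its exons overlap Spidr on the opposite strand, itself at 0.323 to 0.63 TPM, which at this level leaves Cebpd uncertain.

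The wider pathway was read from 5 further lists in the averaged HF against LF comparison, again beside 6.03% higher and 35.3% lower among all tested genes. Over these lists 33 genes were called, and 22 with the trend on length and GC content removed, a count not split by list. Over all tested genes the same step took the calls from 4447 to 3636. The counts by list below are without that step. Of 13 tested genes for the receptor, its chaperones and ligand metabolism, 10 were lower and 0 higher, and 8 lower and 1 higher with size factors. Nr3c1, the glucocorticoid receptor itself, measured 11.1 ± 1.04 TPM in HF laparotomy, 13.4 ± 1.41 TPM in HF control, 16.5 ± 3.54 TPM in LF laparotomy and 17.8 ± 0.734 TPM in LF control libraries (SD, n = 3). It was lower in HF by -0.30 ± 0.097 (adjusted p = 0.00343, limma). Nr3c2, the mineralocorticoid receptor, which also binds corticosterone, was lower at -0.31 ± 0.089, and the receptor coactivator Ncoa2 at -0.47 ± 0.095 (adjusted p = 0.00209 and 7.26e-04, limma). The chaperone partners Fkbp4 and Stip1 were lower at -0.30 ± 0.087 and -0.30 ± 0.080, each with all HF libraries below all LF libraries. Hsd11b1, which regenerates active hormone, was not called at -0.046 ± 0.11 (adjusted p = 0.191, limma).

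Of 22 further glucocorticoid-induced genes, 2 were higher and 5 lower, and with size factors 4 were higher and 2 lower. Lpin1, a phosphatidate phosphatase of lipid synthesis, measured 17.3 ± 1.35 TPM in HF laparotomy, 21.2 ± 4.52 TPM in HF control, 37.0 ± 7.96 TPM in LF laparotomy and 38.0 ± 6.66 TPM in LF control libraries (SD, n = 3). It was lower at -0.78 ± 0.13 (adjusted p = 4.88e-04, limma) with no overlap. Fbxo32, a ubiquitin ligase of muscle wasting, was lower at -0.31 ± 0.11 (adjusted p = 0.00682, limma), and Dusp1, Foxo3 and Trim63 were lower on values as deposited but not with size factors. Nfkbia, the inhibitor of NF-kappaB, was higher at 0.47 ± 0.090, and the factor Cebpb at 0.53 ± 0.13 (adjusted p = 0.0115 and 0.0267, limma).

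Of 11 amino acid genes placed downstream of Klf15, 6 were lower, 1 was higher and 4 were not called. With size factors 5 were lower and 1 higher. The list median was -0.26, although Klf15 itself was not called. Glutamate dehydrogenase Glud1 was lower at -0.45 ± 0.077, the mitochondrial aminotransferase Got2 at -0.46 ± 0.086 and the branched-chain keto acid dehydrogenase kinase Bckdk at -0.38 ± 0.084, all without overlap, and Bckdhb, a subunit of that dehydrogenase, was higher at 0.47 ± 0.094 (adjusted p of 3.74e-04 to 0.015, limma). Of 10 mTORC1 genes around Ddit4 and Sesn1, 8 were lower and 0 higher, and 5 lower and 2 higher with size factors. Rptor, the scaffold of the complex, was lower at -0.46 ± 0.095 and the kinase Mtor at -0.37 ± 0.12, and so were Tsc1 and Tsc2, which inhibit it, at -0.33 ± 0.12 and -0.28 ± 0.095. Ddit4l, the Ddit4-like gene, was also lower in HF on average, opposite to Ddit4, with overlap. It averaged 52.1 TPM after laparotomy and 45.3 TPM in controls of HF, against 60.7 and 75.1 TPM in LF. Across libraries its mean was 58.3 TPM, against 6.2 TPM for Ddit4. Of 7 metal response genes, Mtf1 was lower (-0.16 ± 0.11, adjusted p = 0.0441, limma), but not with size factors, and the others were not called. No gene of these lists was called in any laparotomy contrast.

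**Figure D5:**
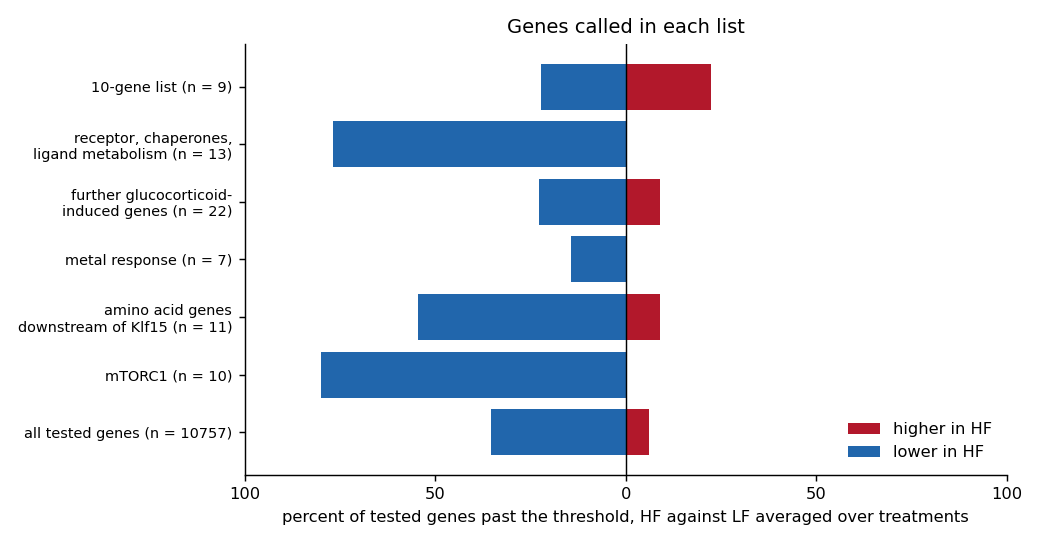
Percent of tested genes of each list past the threshold between HF and LF averaged over treatments, higher in HF to the right in red and lower to the left in blue, with all tested genes in the bottom row. The receptor list (10 of 13) and the mTORC1 list (8 of 10) lie to the left, and the 10-gene list is split, 2 higher and 2 lower of 9.

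The genes most like each member over the 12 libraries were found by the mean absolute difference of standardized log2(TPM + 1), 0 meaning the same shape. For Klf9 they were Dennd4c at 0.156 and Ttc30b at 0.158, against a median of 0.735, and Zbtb16 lay near Slc35a4 at 0.137 against 0.716. Both medians are over tested genes without the members, mitochondrially encoded genes and genes with predicted or no symbols. Klf9 and Zbtb16 were each other's nearest member at 0.368. For Ddit4 the nearest genes were Pxdc1 at 0.326 and Kank3 at 0.356, and for Mt2 they were Ifi211 at 0.326 and Atp5s at 0.338. The nearest member to Mt2 was Ddit4 at 0.715 rather than Mt1, and Mt1 too lay nearest to Ddit4, at 0.724. Fkbp5 lay nearest to Sec14l1 at 0.304, Sesn1 to Cept1 at 0.327, Mt1 to St6gal1 at 0.327, Klf15 to Fkbp1a at 0.409 and Tsc22d3 to Letm2 at 0.437. These values describe shape in 12 libraries that share their totals and carry no test.

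The 7 skeletal muscle markers, slow isoforms among them, summed to 54157 to 70847 TPM over the libraries, and the 6 fast-muscle markers to 15469.7 to 24841 TPM. Fast troponin Tnnt3 averaged 10378 TPM and slow Tnnt1 6775 TPM, while the slow myosin Myh7 averaged 2834 TPM and the fast myosin Myh1 739 TPM, so these values show skeletal muscle with both fibre programmes and do not by themselves identify soleus. Markers of other cells were present: the 6 adipocyte markers summed to 4.22 to 85.1 TPM and the 4 neutrophil markers to 2.3 to 20.3 TPM, although Plin1 of the first list and Ly6g of the second were under 0.1 TPM in every library. Myh4, the fastest myosin, exceeded 30 TPM in HF laparotomy 2 (90.8 TPM), LF laparotomy 1 (62.4 TPM) and LF control 3 (33.5 TPM). Without these 3 libraries, Klf9, Zbtb16 and Ddit4 were still called averaged over treatments, and Mt2 was not (0.57, adjusted p = 0.291, limma). In controls, Zbtb16 was then not called (-0.73, adjusted p = 0.052, limma). Libraries summed to 956473 to 962830 TPM over the table, and their Pearson correlations were 0.9681 to 0.9914 across genes.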

How the data were processed

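RNA of 12 soleus libraries was sequenced after QIAzol and RNeasy extraction, polyA pull-down and a stranded TruSeq kit, per the labels' protocols. The authors deposited gene-level TPM. Kallisto, DESeq2 and GRCm38 are named per the submitters' processing notes, with neither version nor role. Read counts, strand handling and batches are not stated, so depth is unknown and no counting interval was computed. Of 30323 identifiers, 29857 matched a GENCODE M21 symbol and 466 had no match.

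Values were transformed to log2(TPM + 1). The 10757 genes averaging at least 1 TPM were fitted with limma 3.58.1 in R 4.3.3 (mean-variance trend, 4 group means, 8 residual degrees of freedom, two-sided), with Benjamini-Hochberg adjustment over all tested genes in each of 7 contrasts and a threshold of 0.05. Cebpd, below that level, had exact permutation tests. The fit was tested on simulated data. A search for near-identical transcripts found Gm45774 for Mt2, identical over 41% of the Mt2 transcript, and none for the other members. Gm45774 is the gene whose exons overlap those of Mt2 on the opposite strand, so the match need not be a separate copy. It has no row under that symbol among the deposited values.

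Members and lists were chosen with earlier results of these data known. All members are named. Of other pathway genes, those called or with groups that do not overlap were to be named, up to 6 a contrast by smallest p, and the 2 genes most like each member. For 6 members only 1 of these is reported here. Pathway genes outside that rule, such as Nr3c1, Hsd11b1, Mt3 and Mtf1, were named after their values were seen. Alternatives were other pseudocounts, filters and scalings, array weights, fitting the compared groups alone, removing a trend with length and GC content, dropping the 3 libraries whose Myh4 exceeded 30 TPM and dropping each library in turn. Array weights were estimated gene by gene, a change made after seeing the data, since the planned estimate did not converge. Counts of other pathway genes outside the scalings were also added after seeing the data.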

Additional observations from a re-analysis of the deposited data

How the results depend on the processing

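No member was called in the 4 laparotomy contrasts under any alternative run, and limma then called at most 5 of all tested genes there. For averaged HF against LF 3 to 5 members were called on leaving out single libraries, and 7 with array weights. After laparotomy HF against LF gave 5 members with size factors, quantile normalization or array weights, and 2 to 4 on leaving out single libraries. In controls it gave 1 without the filter or without the 3 libraries with Myh4 above 30 TPM, 4 with only the groups compared, and 0 to 2 on leaving out single libraries. Calls over all tested genes in controls were 1127, with 121 without the filter, 163 without the Myh4 libraries, 1934 with size factors, 2082 with quantile normalization, 2238 rescaled, 3127 with array weights and 2 to 2080 without single libraries. After laparotomy they were 2796, with 1487 without the filter, 1362 with only the groups compared, 6036 with array weights, 1714 after removal of the length and GC trend, and 1048 to 4157 without single libraries. Other pathway genes called numbered 20 after laparotomy (32 with array weights, 11 to 25 without single libraries). In controls they numbered 10 (0 without the filter or the Myh4 libraries, 18 rescaled, 16 with only the groups compared, 22 with array weights, 0 to 17 without single libraries). Averaged over treatments they numbered 33 (22 after removal of the length and GC trend, 26 to 37 without single libraries). The cause of these changes was not tested, apart from fewer libraries where some were left out.

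Of 1415 member differences under alternatives, 1320 kept direction and side of the threshold, 28 lost a call, 26 gained one and 41 turned in sign, 31 of them on leaving out 1 library. No called member difference turned. In LF laparotomy, Ddit4 turned to -0.059 with the length and GC trend removed, Klf15 to 0.072 and Mt2 to 0.37 with array weights, and Klf15 to 0.14 without the Myh4 libraries. Without those libraries Mt2 turned to -0.057 for averaged laparotomy, Zbtb16 to -0.38 for the laparotomy effect in HF minus that in LF, and Klf15 to -0.14 for HF against LF after laparotomy. Fkbp5 in that comparison turned to 0.0042 with quantile normalization and 0.12 with array weights, and Sesn1 to 0.078 for averaged HF against LF with array weights. Differences that turned on leaving out single libraries ranged as follows. In LF laparotomy they were -0.053 to 0.17 for Tsc22d3, -0.082 to 0.11 for Ddit4, -0.089 to 0.0061 for Sesn1, -0.16 to 0.088 for Klf15, -0.045 to 0.21 for Mt1, -0.36 to 0.15 for Mt2 and -0.14 to 0.37 for Zbtb16. In HF laparotomy they were -0.033 to 0.32 for Fkbp5 and -0.11 to 0.011 for Klf9. For averaged laparotomy they were -0.10 to 0.078 for Fkbp5, -0.02 to 0.19 for Klf15 and -0.0091 to 0.25 for Zbtb16. For the difference of both laparotomy effects they were -0.25 to 0.25 for Zbtb16. For HF against LF after laparotomy they were -0.21 to 0.14 for Fkbp5, -0.022 to 0.29 for Sesn1 and -0.082 to 0.24 for Klf15. For averaged HF against LF they were -0.0066 to 0.10 for Tsc22d3, -0.15 to 0.0024 for Sesn1 and -0.18 to 0.036 for Klf15. No paired analysis was possible because replicate numbers were given in accession order and pair no libraries. Depth is unknown, so what it limits cannot be stated.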
